A study of Mus musculus with 6 samples.

Results

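The regions described here were the 236 bins of 500 kb, of 4727 autosomal bins with data, whose compartment score was lowest in myotubes relative to myoblasts (the 5% with the lowest difference). The score was the first principal component (PC1) of the correlation matrix of each chromosome, divided by its SD on that chromosome. Its sign was set so that it correlated positively with gene density. In Hi-C, DNA fragments that lie close together in the nucleus are ligated and sequenced as pairs. It was performed with HindIII on C2C12 cells, an established line of mouse myoblasts from the C3H strain. These cells exit the cell cycle and fuse into multinucleated myotubes when serum is lowered. Myoblasts were taken at day 0 as sub-confluent cultures that had proliferated for 72 h. Myotubes were plated more densely, proliferated for the same time and were harvested at day 3 of differentiation without AraC, so that undifferentiated myoblasts remained among them. AraC-treated myotubes were kept in 10 µg/ml cytosine arabinoside (AraC), a cytidine analogue that eliminates dividing cells, from day 3 and harvested at day 7. For differentiation, the medium was switched from foetal bovine serum to a lower concentration of horse serum. The conditions therefore differed in plating density, medium, day and AraC as well as in cell state, and these cannot be told apart. Each condition had 2 replicate libraries, which were pooled into a single matrix before deposit. No difference between conditions could be set against replicate error, no test was run, and all values below are descriptions of 3 matrices. By the study's own correlations of replicate matrices at 500 kb, the myoblast replicates were less alike than the myotube replicates. Their correlation was only slightly above the highest one between a myoblast and a myotube replicate.

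In interphase nuclei, chromatin separates into an A compartment, in which gene-rich and transcribed regions contact each other, and a B compartment of gene-poor, late-replicating and often lamina-associated regions. A positive PC1 marks the A compartment and a negative PC1 the B compartment, and a bin close to 0 has a mixed interaction profile. During myogenesis, myoblasts leave the cell cycle, silence programmes of proliferating or non-muscle cells and activate contractile genes. PC1 does not measure transcription, and no expression values were used here.

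To show what kinds of promoter lay in the bins with the lowest differences, the promoters of 6 genes are given, each from a different bin. They run from 250 bases before to 50 bases after the RefSeq transcription start site (GRCm38.p6) in the 5′ to 3′ direction of the gene, with CpG dinucleotides in capitals. Tax1bp1 encodes an autophagy receptor (chr6:52713479-52713778, + strand), Nid1 the basement membrane protein nidogen (chr13:13437352-13437651, + strand), Pik3cg a catalytic subunit of phosphoinositide 3-kinase found mainly in leukocytes (chr12:32208610-32208909, - strand), Sox1 a transcription factor of neural progenitors (chr8:12395269-12395568, + strand), Prl2c3 a proliferin of the prolactin family (chr13:12800030-12800329, - strand) and Cebpa a transcription factor of adipocyte and myeloid differentiation (chr7:35119043-35119342, + strand).
Tax1bp1: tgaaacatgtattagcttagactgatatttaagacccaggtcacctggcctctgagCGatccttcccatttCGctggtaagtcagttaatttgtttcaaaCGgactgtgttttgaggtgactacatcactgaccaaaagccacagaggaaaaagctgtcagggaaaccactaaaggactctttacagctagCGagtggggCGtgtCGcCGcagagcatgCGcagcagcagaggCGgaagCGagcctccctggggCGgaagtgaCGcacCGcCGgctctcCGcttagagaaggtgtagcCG
Nid1: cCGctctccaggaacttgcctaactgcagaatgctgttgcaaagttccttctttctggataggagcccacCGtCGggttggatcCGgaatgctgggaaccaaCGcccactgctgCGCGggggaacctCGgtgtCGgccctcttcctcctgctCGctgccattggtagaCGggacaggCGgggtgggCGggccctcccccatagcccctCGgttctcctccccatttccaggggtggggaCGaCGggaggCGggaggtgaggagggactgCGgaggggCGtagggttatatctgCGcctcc
Pik3cg: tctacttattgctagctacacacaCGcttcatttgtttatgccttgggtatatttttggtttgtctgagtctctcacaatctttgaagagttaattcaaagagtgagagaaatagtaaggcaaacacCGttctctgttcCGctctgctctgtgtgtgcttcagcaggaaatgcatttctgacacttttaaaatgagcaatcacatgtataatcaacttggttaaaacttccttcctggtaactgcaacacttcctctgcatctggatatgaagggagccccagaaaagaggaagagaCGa
Sox1: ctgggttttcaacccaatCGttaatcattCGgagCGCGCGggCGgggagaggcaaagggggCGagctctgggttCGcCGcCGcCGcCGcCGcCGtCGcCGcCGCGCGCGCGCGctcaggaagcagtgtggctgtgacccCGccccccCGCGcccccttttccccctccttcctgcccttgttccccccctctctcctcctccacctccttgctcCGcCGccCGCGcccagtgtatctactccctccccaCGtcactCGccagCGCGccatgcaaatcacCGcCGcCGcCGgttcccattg
Prl2c3: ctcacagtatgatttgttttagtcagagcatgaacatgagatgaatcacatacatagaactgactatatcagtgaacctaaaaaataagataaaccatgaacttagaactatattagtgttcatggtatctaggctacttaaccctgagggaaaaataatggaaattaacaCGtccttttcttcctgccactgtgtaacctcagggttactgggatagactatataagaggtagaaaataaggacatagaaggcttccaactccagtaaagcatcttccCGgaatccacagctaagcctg
Cebpa: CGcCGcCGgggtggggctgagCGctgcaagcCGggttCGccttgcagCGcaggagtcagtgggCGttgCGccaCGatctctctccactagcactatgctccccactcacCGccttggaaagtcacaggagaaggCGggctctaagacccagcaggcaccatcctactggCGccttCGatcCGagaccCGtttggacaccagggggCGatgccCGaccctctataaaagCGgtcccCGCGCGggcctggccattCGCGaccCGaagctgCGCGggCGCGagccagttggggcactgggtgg

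These promoters were unlike each other. The Sox1 promoter held 37 CpG dinucleotides, that of Cebpa 29, that of Nid1 20 and that of Tax1bp1 16, whereas the promoters of Pik3cg and Prl2c3 held 4 and 2. A promoter sequence in RefSeq was matched to 868 of the 1228 protein-coding genes whose start site (TSS) lay in a member bin, and to 15419 of the 20360 genes in all autosomal bins. At least 15 CpG dinucleotides were present in 50.8% of the promoters in member bins and 51.2% of all promoters. The E-box CAGCTG, a palindrome that reads the same on both strands and is bound by myogenic factors, was absent from all 6 printed promoters and was present in 15.1% of promoters in member bins against 15.5% of all. The general E-box CANNTG, which contains the former, was present in 68.3% and 67.6%. Because a bin is 500 kb long, its PC1 belongs to the region and cannot be assigned to any of these promoters.

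The members were chosen by their values in myoblasts and myotubes, which are therefore given without any test. In myoblasts, scaled PC1 of the 236 bins had a median of 0.446 (lowest -0.504, highest 3.16), and in myotubes a median of -0.129 (lowest -0.934, highest 2.63). The difference between them ranged from -1.26 to -0.411, with a median of -0.524. Just inside the limit lay the bin of Ctnna1, Lrrtm2 and Sil1 on chr 18 at -0.413, a bin of chr 5 without a protein-coding TSS (chr5:97500001-98000000) at -0.412 and the bin of Efnb2 and Arglu1 on chr 8 at -0.4113. Just outside lay the bin of Erich1 and Dlgap2 on chr 8 at -0.4111, a bin of chr 3, also without such a TSS (chr3:155500001-156000000), at -0.411 and the bin of Tusc3 on chr 8 at -0.409. The limit thus cut through a continuous series of values.

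A lower score did not always mean a change of compartment. Most members were on the A side in myoblasts, 192 of 236 (81.4%), compared with 38.2% of all autosomal bins. In myotubes, 96 members had moved to the B side (40.7%, against 4.53% of all bins, a contrast that the selection itself used), 96 remained in A with a lower score and 44 were in B in both. By the rule, each of these steps was at least as large as the limit. Of the 60 members whose absolute PC1 exceeded the 20th percentile of its chromosome in both conditions, 5 changed from A to B, so that most sign changes had a value near 0 in at least 1 of the conditions.

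The choice of bins depended strongly on the division by the SD. Before scaling, PC1 spread far more widely in myotubes (SD 1.61 over all bins) and AraC-treated myotubes (1.36) than in myoblasts (0.859), and the first component explained 56.1% to 90.3% of the variance of a chromosome in myotubes against 26.3% to 69.2% in myoblasts. Without division by the SD, 33 of the 236 bins were again among the 5% lowest, and with ranks within each chromosome 97 were. Unscaled PC1 was lower in myotubes for 207 members (87.7%, against 64.2% of all bins) and the rank was lower for 235 (99.6%, against 48.1%), counts that come from the same values as the selection and lend it no support. Unscaled medians were 0.357 in myoblasts, -0.198 in myotubes and -0.228 after AraC.

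The AraC-treated matrix took no part in the selection, and it was closer to that of untreated myotubes. Scaled PC1 of the members in AraC-treated myotubes had a median of -0.184 (lowest -1.08, highest 2.67), and the quartiles of -0.492 and 0.249 were near those of myotubes, -0.473 and 0.245. On the B side lay 145 members (64.5% of all bins did so), while 91 were in A. Of the 96 members that had crossed into B in myotubes, 87 were also in B after AraC treatment and 9 were back in A, and a further 14 crossed only in AraC-treated myotubes. Over all bins the proportion was alike, as 190 of the 214 that crossed in myotubes were also in B after AraC and 24 were back in A. Of all 4727 bins, 117 crossed only after AraC. An A to B change between myoblasts and AraC-treated myotubes was found in 101 members (42.8%), and in 6.49% of all bins. This count reuses the myoblast matrix, in which 81.4% of members and 38.2% of all bins were in A. The selection therefore largely fixed the contrast, and it is no independent support. In the AraC-treated matrix alone, the share in B was 61.4% of members and 64.5% of all bins.

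Setting the AraC-treated cells against myoblasts reuses the myoblast matrix that chose the members, and setting them against myotubes reuses the myotube matrix. Within that limit, scaled PC1 was lower than in myoblasts in 235 of 236 members (53.4% of all bins) and was lower by at least the 0.411 of the limit in 195 (9.54% of all bins). It was nearer to the myoblast than to the myotube value in 19 members (8.05%), compared with 27.0% of all bins. Relative to myotubes, 145 members were lower still (52.8% of all bins) and the median of that difference was -0.0390. The 236 bins at the opposite end of the contrast, which rose most from myoblasts to myotubes, had medians of 0.235 in myoblasts, 0.899 in myotubes and 1.10 after AraC. Of these bins, 16 (6.78%) had an AraC-treated value nearer to myoblasts than to myotubes. A low share of such bins was thus not particular to the members.

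**Figure D1:**
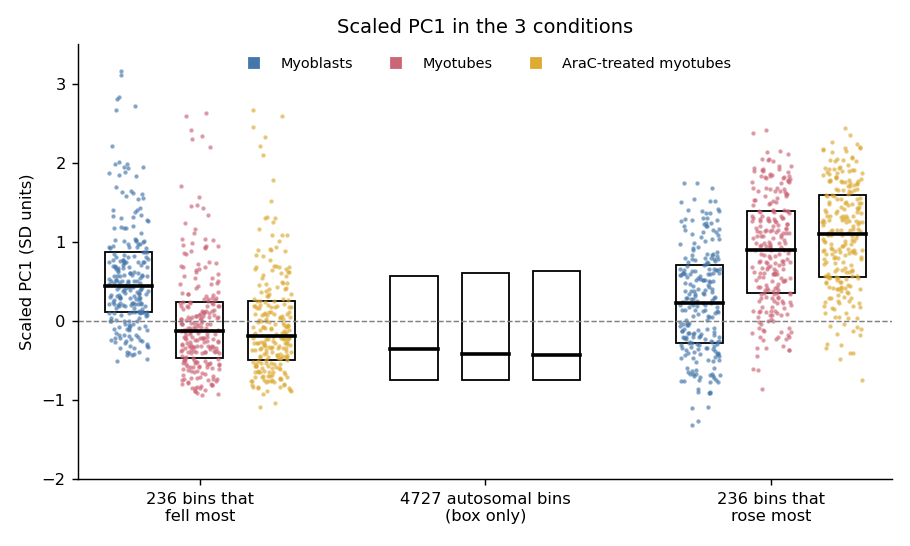
Scaled PC1 (SD units, vertical axis) of single bins in myoblasts, myotubes and AraC-treated myotubes, for the 236 bins that fell most (left) and the 236 that rose most (right), with boxes for the quartiles and a thick line for the median; the middle boxes are all 4727 autosomal bins. The members lay at a median of 0.446 in myoblasts, -0.129 in myotubes and -0.184 after AraC, while the median of all bins lay between -0.349 and -0.430.

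The lowest difference was found at the bin of Hibadh, an enzyme of valine breakdown, and Tax1bp1 on chr 6 (chr6:52500001-53000000). Scaled PC1 was 1.94 in myoblasts, 0.687 in myotubes and 0.644 after AraC, so that the bin stayed in A. The second lowest was the bin of chr 13 with Prl2c2, Prl2c5, Gpr137b and Nid1 (chr13:13000001-13500000), at 0.616, -0.513 and -0.547 in the same order. Here both myotube matrices lay on the opposite side of 0 from the myoblast matrix. The bin of Prkar2b, a regulatory subunit of protein kinase A, Pik3cg and Ccdc71l on chr 12 (chr12:32000001-32500000) went from 1.01 in myoblasts to -0.0901 in myotubes and -0.369 after AraC.

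The bin of Sox1 and A230072I06Rik (chr8:12000001-12500000) had the fourth lowest difference, with 0.185 in myoblasts, -0.849 in myotubes and -0.590 after AraC. Adjacent to the Prl2c2 bin, that of Edaradd, an adaptor of the ectodysplasin receptor, Ero1lb and Prl2c3 (chr13:12500001-13000000) read 0.209, -0.821 and -0.923. The bin of Prss51, Prss55, Prss52 and Msra on chr 14 (chr14:64000001-64500000) read 1.62 in myoblasts, 0.623 in myotubes and 1.25 after AraC. That bin differed from the others in that the AraC-treated value was nearer to myoblasts. Prl2c genes are near-identical copies, and the histone, interferon and olfactory receptor clusters named below hold genes that are related to a varying degree. What reads shared between copies contribute to such bins was not tested.

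The bin of Nectin1, a cell adhesion molecule, on chr 9 (chr9:43500001-44000000) read 1.03 in myoblasts, 0.0427 in myotubes and 0.0832 after AraC. A bin of chr 7 with 9 genes, among them Cebpg, Cebpa, Slc7a10 and Lrp3 (chr7:35000001-35500000), read 0.703, -0.280 and -0.410. A bin of chr 13 without a protein-coding TSS (chr13:53500001-54000000), beside that of Msx2, read 0.451, -0.517 and -0.279. Both of the latter bins crossed to B in each myotube matrix, whereas the Nectin1 bin ended just above 0.

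Further bins among the 12 lowest extended the same stretches of chr 13 and chr 6. Lyst, a regulator of lysosome traffic, Gng4 and B3galnt2 (chr13:13500001-14000000) lay in a bin at 0.583 in myoblasts, -0.384 in myotubes and -0.407 after AraC. Nfe2l3, Hnrnpa2b1 and Cbx3, the last encoding a heterochromatin protein of the HP1 family, shared a bin (chr6:51000001-51500000) at 1.30, 0.352 and 0.193. The former bin crossed to B and the latter stayed in A.

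Members tended to lie side by side. They formed 116 runs of adjacent bins, and 173 of 236 (73.3%) had a member next to them, while 63 stood alone. Runs of 4 or more bins numbered 16 and held 86 members (36.4%). PC1 of neighbouring bins is smooth by nature, so adjacent members are not independent observations. Around the member with the lowest difference in each run, the median difference was -0.525 in the bin itself, -0.352 and -0.335 at 0.5 Mb on the centromeric and telomeric side, -0.233 and -0.218 at 1 Mb and -0.0318 and -0.0216 at 3 Mb. In myoblasts the median score rose to a peak of 0.436 at this bin. In myotubes the bin itself (-0.205) was below its neighbour on the centromeric side (-0.0209) and close to that on the telomeric side (-0.203). The profiles were centred on the lowest difference of each run. A high myoblast score relative to myotubes at that bin therefore follows from the choice.

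**Figure D2:**
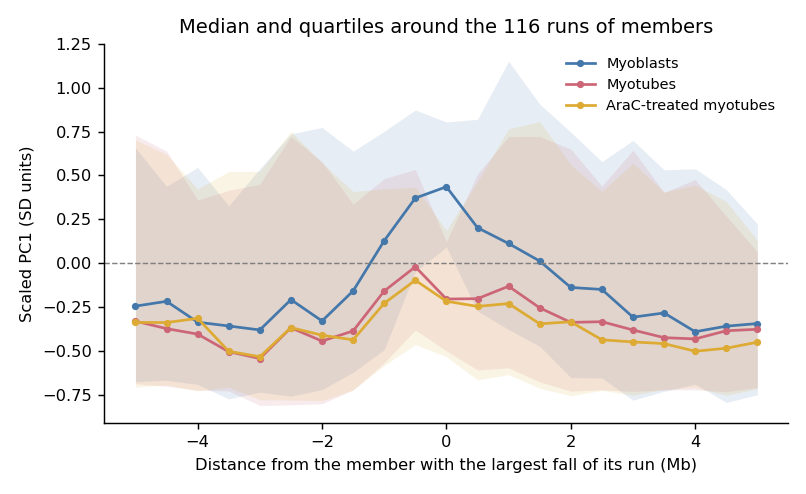
Scaled PC1 (SD units) against distance in Mb from the member with the lowest difference of each of the 116 runs, as medians (lines) and quartiles (shading) in the 3 conditions, with the centromeric side at negative distances. The median of myoblasts was 0.436 at distance 0, where myotubes were at -0.205 and AraC-treated myotubes at -0.217, and at 5 Mb on the telomeric side the medians were -0.345, -0.377 and -0.451.

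The longest run covered 10 bins of chr 6 (chr6:49000001-54000000) from Gpnmb and Npy, the gene of neuropeptide Y, through Tax1bp1 to Tril and Cpvl. All 10 bins were in A in myoblasts, with a median of 1.57, and 7 were in A in each of myotubes (median 0.580) and AraC-treated myotubes (0.462). The bins at the centromeric edge changed sign, as in the Npy bin, which read 0.213 in myoblasts, -0.543 in myotubes and -0.504 after AraC. Towards the telomeric edge the bins kept a high score, and the bin of Tril and Cpvl read 2.01, 1.45 and 1.09. The next longest run held 8 bins of chr 14 (chr14:65000001-69000000), from Extl3 and Fzd3, a Wnt receptor, past Clu to the neurofilament genes Nefl and Nefm and the bin of Adam7, Adamdec1 and Adam28. All 8 were in A in myoblasts (median 0.435), and 2 were in A in myotubes (median -0.262) and in AraC-treated myotubes (median -0.227).

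Runs of 6 bins lay on 5 chromosomes. On chr 8 (chr8:10500001-13500000) the run included Irs2, an insulin receptor substrate, Col4a1 and Col4a2, both encoding basement membrane collagen, Sox1 and the coagulation factors F7 and F10, and its median was 0.860 in myoblasts, 0.106 in myotubes and 0.0197 after AraC. On chr 12 (chr12:30500001-33500000), from Tmem18 past Lamb1 and Pik3cg to Nampt and Twistnb, the medians were 0.744, 0.0495 and -0.359. Of the 16 runs of 4 or more, this was the one in which the median of AraC-treated myotubes lay farthest below that of myotubes. On chr 9 (chr9:41500001-44500000), from Sorl1 to Nectin1, Thy1 and Mcam, the medians were 0.923, 0.0110 and 0.0444.

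The run of chr 10 (chr10:22000001-25000000) held Tcf21, Eya4, the trace amine receptor (Taar) genes and Ccn2, a secreted matricellular protein, with medians of 0.442 in myoblasts, -0.187 in myotubes and -0.233 after AraC. The run at the centromeric end of chr 2 (chr2:3000001-6000000), with Fam107b, Frmd4a, Mcm10 and Camk1d, stayed mainly in A, with medians of 0.871, 0.292 and 0.374. Of its 6 bins, 5 were in A in each myotube matrix. The run of chr 13 with the Prl2c genes (chr13:12500001-14500000) was 4 bins long and had the lowest median difference of all runs of 4 or more, -0.999, with no bin in A in either myotube matrix.

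Among the other runs, that of Gata3 on chr 2 (chr2:8500001-10500000, 4 bins) and that of Itga8 to Vim on chr 2 (chr2:12000001-14000000, 4 bins) had no bin in A in either myotube matrix. Vim encodes vimentin, the intermediate filament of mesenchymal cells and myoblasts, and its bin read 0.301 in myoblasts, -0.334 in myotubes and -0.413 after AraC. The run of F2r, the thrombin receptor, on chr 13 (chr13:94500001-96500000, 4 bins) had no bin in A in myotubes and 2 after AraC. In the run of Il1rn and Pax8 on chr 2 (chr2:23000001-25000000, 4 bins) 1 bin was in A in each. Bins in A were more frequent in the runs of Cxcl12 and Ret on chr 6 (chr6:117000001-119500000, 5 bins, 2 in A in myotubes and 4 after AraC), of Hivep1, Edn1 and Phactr1 on chr 13 (chr13:41500001-43500000, 4 bins, 3 and 3) and of Ror2, Msx2 and Drd1 on chr 13 (chr13:53000001-55000000, 4 bins, 3 and 3).

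**Figure D3:**
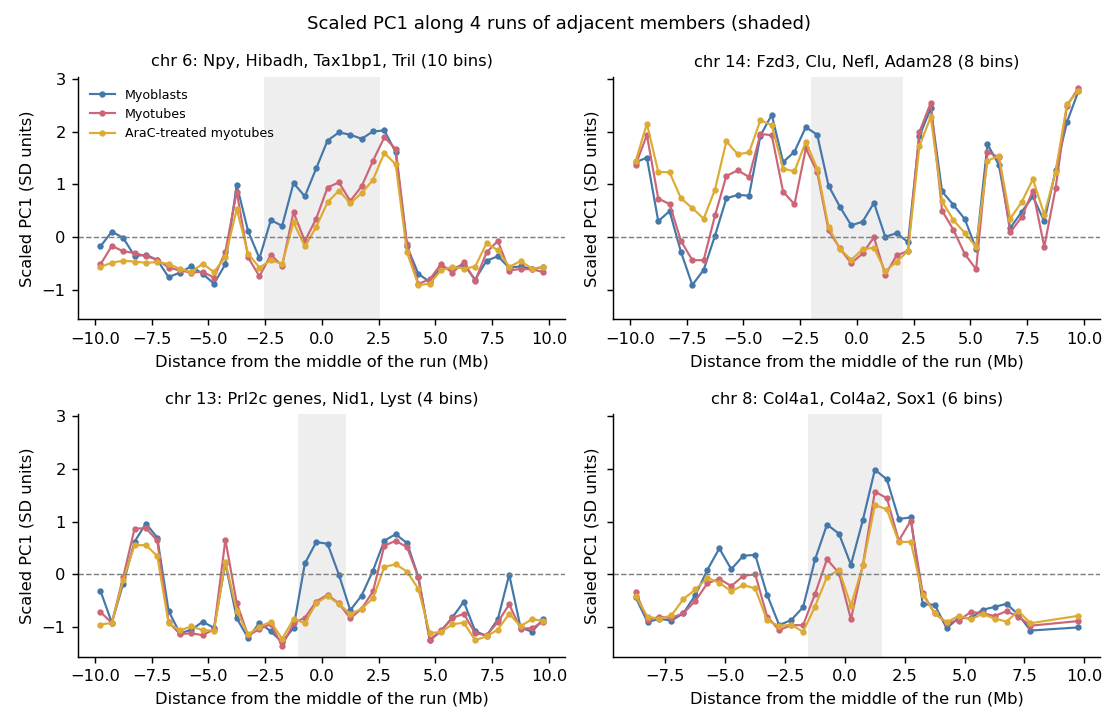
Scaled PC1 (SD units) against distance in Mb from the middle of 4 runs of adjacent members, shaded, in the 3 conditions; each point is a bin of 500 kb. In the run of chr 13 the medians were 0.396 in myoblasts, -0.531 in myotubes and -0.554 after AraC, and in the run of chr 6 they were 1.57, 0.580 and 0.462.

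The 2 myotube matrices differed for some members. The largest positive differences between AraC-treated and untreated myotubes were found on chr 14, at the bin of Prss51 and Msra (0.624), at that of Rubcnl, Lrrc63, Lcp1, Cpb2, Zc3h13 and Siah3 (0.610) and at the cluster of mast cell proteases and granzymes with Mcpt1, Mcpt9, Mcpt2 and Mcpt4 among 15 genes (0.572). The bin of Lcp1, an actin-bundling protein of leukocytes, was the member whose AraC-treated value, 0.428, lay above that of myoblasts, 0.297, with myotubes at -0.182. The bin of Carmil1 and Cmah on chr 13 (0.448) and that of Sox7 on chr 14 with 7 genes, starting with Tdh, Mtmr9, Xkr6 and Pinx1 (0.440), followed. Of these 5 bins 4 thus lay on chr 14.

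The lowest values of AraC-treated relative to untreated myotubes were found at 2 adjacent bins of chr 12, that of Fam110c, Gm6993, Lamb1, Dld, Slc26a3 and Cbll1 (-0.538) and that of Slc26a4, Bcap29, Dus4l, Cog5, Gpr22 and Hbp1 (-0.484). The bin of Vcam1 on chr 3, which also holds Slc30a7, Extl2 and Cdc14a, read 0.869 in myoblasts, -0.0367 in myotubes and -0.459 after AraC, a difference of -0.423 between the last 2. Vcam1 encodes an adhesion molecule of endothelial and myogenic cells. The bin of chr 9 with 26 genes, starting with Thy1, Usp2, Mfrp and C1qtnf5, was lower by -0.372 and that of Tril and Cpvl by -0.362, and both remained in A.

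The full interaction profiles of the members changed with PC1. The profile correlation of a bin is Pearson's r between its correlation coefficients with the other bins of its chromosome in 2 conditions. Between myoblasts and myotubes, the median was 0.293 for members and 0.877 for all bins, and 78 members (33.1%) had r below 0, as 3.26% of all bins did. This contrast also underlies the selection. Between myoblasts and AraC-treated myotubes the median was 0.235 for members and 0.839 for all bins. Here 81 members were below 0 (34.3%, against 5.8% of all bins), and the myoblast matrix was reused. A negative r was also frequent among the 236 bins that rose most. It was found in 15.3% of them between myoblasts and myotubes and in 26.3% between myoblasts and AraC-treated myotubes. The lowest value of any autosomal bin belonged to a member in both comparisons, the Nid1 bin with myotubes (-0.707) and the Pik3cg bin with AraC-treated myotubes (-0.757).

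Between the 2 myotube matrices, a comparison in which the selection used only the untreated matrix, the median profile correlation was 0.878 for members and 0.947 for all bins. Here r was below 0 in 5 members (2.12%, against 1.16% of all bins and 5.08% of the bins that rose most). Among these members was the bin of Carmil1 and Cmah at -0.216. The Nid1 bin, at -0.707 between myoblasts and myotubes, had r of 0.928 between the myotube matrices. Profiles close to 0 in both conditions can have a low r from small shifts, and bins with PC1 near 0 were frequent among the members.

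Coefficients with bins of other chromosomes did not enter the component that chose the members. They are no independent measure, however, because each coefficient compares whole interaction profiles of the same matrices and the partner bins were grouped by PC1. Over all autosomes, 1253 bins stayed in A and 2660 in B, with the members and the bins that rose most left out. For each bin, those on other chromosomes served as partners. The mean correlation coefficient with the A partners was set against that with the B partners, and the difference was ranked among all 4727 bins. The median percentile of the members was 71.8 in myoblasts, 58.5 in myotubes and 57.8 after AraC. The percentile was lower in myotubes than in myoblasts for all 236 members (51.9% of all bins), as the selection largely fixed, and lower in AraC-treated myotubes for 235 (53.7% of all bins). A component computed only from coefficients with other chromosomes placed 181 of the 236 bins again among its 5% lowest.

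Relative to the spread of all pairs, members also correlated less with each other in the myotube matrices. Over 25699 pairs of members on different chromosomes, the mean coefficient lay above the mean of all such pairs by 0.334 SD of all pairs in myoblasts, 0.117 SD in myotubes and 0.10 SD in AraC-treated myotubes. For the 236 bins that rose most the sequence was opposite, at 0.251, 0.525 and 0.867 SD. Both sequences come from the matrices that gave PC1 and are no separate evidence. The SD of all pairs itself was 0.0446 in myoblasts, 0.0890 in myotubes and 0.0732 after AraC, so the unit differed among conditions. The mean coefficient of member pairs was 0.0202, 0.0178 and 0.0104 in the same order, and that of all pairs 0.00526, 0.00743 and 0.00306. Much of the fall in SD units from myoblasts to myotubes thus came with the larger SD.

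In sequence and gene content, the members were richer in GC and in genes than the median bin. Their median GC content was 43.2%, with 9.61 CpG dinucleotides per kb and 4 protein-coding TSSs per bin, compared with 41.7%, 8.13 and 2 over all bins. A bin without any protein-coding TSS was rarer among members, with 20 (8.47%), than among all bins (24.3%), and bins with 10 or more were about as frequent (13.1% and 13.3%). Gene bodies covered a median of 51.9% of a member bin and 43.0% of all bins, and repeats masked in the reference covered 26.9% and 31.5%. HindIII sites, which limit the resolution of the assay, numbered 163 and 162 per bin. These features were not particular to the members. The bins that rose most had medians of 44.1% GC, 10.4 CpG dinucleotides per kb, 3 TSSs and 55.5% gene bodies. Of these bins 27 (11.4%) had no protein-coding TSS.

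Other bins of a like myoblast level shared most of these features. Among bins with a myoblast score between 0 and 1, a range chosen after the values were seen, the 144 members and 820 other bins were similar in GC content (42.8% and 42.9%) and in CpG density (9.50 per kb in both), and had 3.5 and 4 TSSs. These members had medians of 0.438 in myoblasts and -0.148 in myotubes, while the other bins had 0.401 and 0.477. The nearest bin of opposite sign in myoblasts lay at a median of 1 Mb from these members and 0.5 Mb from the other bins of that range. Over all levels the order was the other way, with medians of 1 Mb for the 236 members and 1.5 Mb for all bins. Next to a bin of the other sign lay 96 members (40.7%, against 27.4% of all bins). Of the bins that rose most, 123 (52.1%) did so.

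The members were unevenly spread over the genome. Chr 13 had the highest share, with 26 of 231 bins (11.3%), followed by chr 6 with 27 (9.34%), chr 14 with 19 (8.30%) and chr 8 with 19 (7.63%). PC1 of chr 13 was only weakly related to gene density. Its correlation with the number of TSSs was 0.131 in myoblasts, 0.0627 in myotubes and 0.0512 after AraC, the lowest of all autosomes. With the sign set by GC content instead, all 236 bins were again among the 5% lowest. No member lay on chr 11 or chr 16, 2 lay on chr 15, 3 on chr 17 and 3 on chr 19. The SD of the difference between myotubes and myoblasts itself ranged from 0.184 to 0.358 among chromosomes, and its part in the uneven spread was not tested. When the lowest 5% were taken on each chromosome, 174 of 227 bins were members.

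Position along the chromosome was also uneven. Mouse autosomes are telocentric. In 5 equal segments of chromosome length, counted from the centromeric end, the members made up 8.86%, 6.59%, 4.39%, 3.40% and 2.26% of bins, that is 74, 64, 43, 33 and 22 bins. The median position of the members was 34.6% of the chromosome, that of all bins 51.4% and that of the bins that rose most 78.6%. The same direction was present in the pooled bins of all chromosomes. Their median difference between myotubes and myoblasts was -0.0724 in the segment next to the centromere and 0.0699 in that next to the telomere. Single chromosomes varied in this respect. The correlation of the difference with position had a median of 0.258 and was highest on chr 2 (0.574). It was negative on chr 3 (-0.142) and chr 17 (-0.120) and positive on all others. Among the latter it was very weak on chr 14 (0.0346), chr 15 (0.0176) and chr 19 (0.000382). After a linear trend with position was removed from each PC1, an alternative added after the data were seen, 186 of the 236 bins were again among the 5% lowest, and the median position of that list was 51.2%. Subtracting a linear trend by itself largely takes away a linear unevenness of position, so this median says little about it. The source of the trend was not tested.

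**Figure D4:**
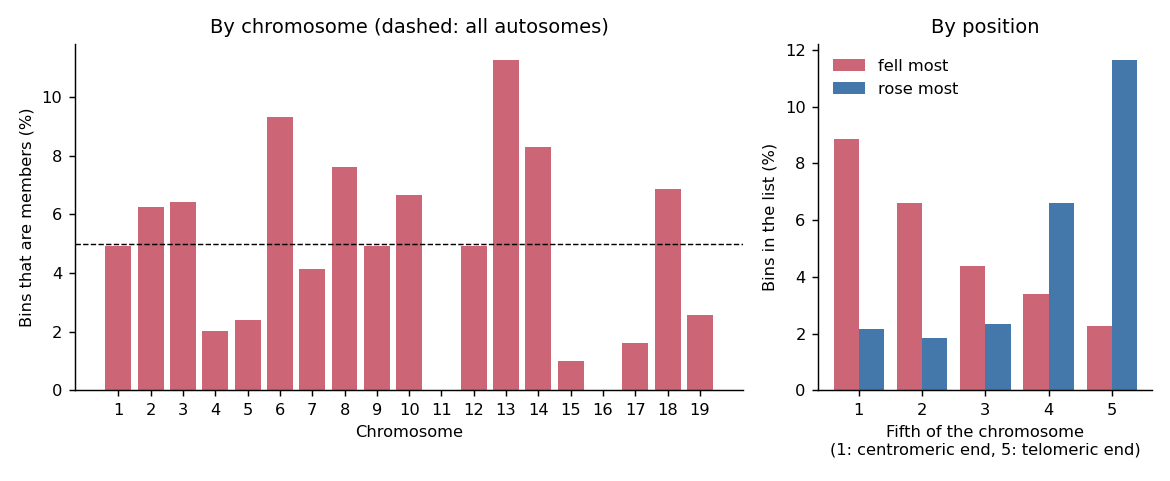
Left, share of the bins of each autosome that were members (percent), with the share over all autosomes as a dashed line; right, share of bins in each of 5 equal segments of the chromosome, from the centromeric to the telomeric end, that belonged to the bins that fell most or rose most. Members ranged from 0 on chr 11 and chr 16 to 11.3% on chr 13, and from 8.86% in the segment next to the centromere to 2.26% in that next to the telomere.

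Of the 20360 protein-coding genes with a TSS in the autosomal bins, 1228 (6.03%) lay in member bins, which is the background for the 14 gene lists examined. The lists were chosen with earlier results of these data known, so their shares are descriptions and no test of the lists. Genes of a family lie side by side and share bins, so a high count can come from very few bins. The clearest case was the HIST1 cluster of replication-dependent histone genes on chr 13, which supply histones during DNA synthesis. Of its 54 genes 49 (90.7%) lay in member bins, but these were only 2 bins. The bin with Hist1h4h, Hist1h2af, Hist1h3g and Hist1h2bh (chr13:23500001-24000000), the member with the most TSSs at 38, read 0.752 in myoblasts, 0.105 in myotubes and 0.281 after AraC and stayed in A. The more centromeric bin (chr13:21500001-22000000), which also holds olfactory receptor genes, read -0.00242, -0.569 and -0.746 and was in B throughout.

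Inflammatory ligands and receptors formed the next group. Of 50 genes of the interleukin-1 family and chemokines, 21 (42.0%) lay in 6 member bins, and 0 lay in bins that rose most, which held 5.63% of all genes. This list, too, was chosen with earlier results known, and neither share is independent support. The bin of chr 2 with Il1f8, Il1f9, Il1f6, Il1f5 and Il1rn, ligands and an antagonist of interleukin-1 type receptors, read 0.307 in myoblasts, -0.471 in myotubes and -0.530 after AraC. The receptor genes Il1r2, Il1r1, Il1rl2, Il1rl1 and Il18r1 on chr 1 (chr1:40000001-40500000) shared a bin at 1.12, 0.572 and 0.464, which stayed in A. The chemokine cluster of Cxcl5, Ppbp, Pf4 and Cxcl1 on chr 5 (chr5:90500001-91000000) crossed from 0.214 to -0.260 and -0.543.

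Of the other members with the most TSSs, the type I interferon cluster on chr 4 (33 TSSs, starting with Ifnb1, Ifna15, Ifna14 and Ifna9) read 0.290 in myoblasts, -0.215 in myotubes and -0.386 after AraC. The bin of chr 10 with Fam207a, Itgb2, Pttg1ip and Sumo3 and a cluster of keratin-associated protein genes, also 33 TSSs, read 0.838, 0.190 and 0.407. The interferon bin thus changed to B and the other did not.

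Genes of the extracellular matrix, which myoblasts secrete and remodel, were in member bins in 11 of 69 cases (15.9%, in 9 bins), while 8.70% lay in bins that rose most. Nid1 is described above. Col6a1 and Col6a2, encoding the microfibrillar collagen VI around muscle fibres, shared a bin of chr 10 (chr10:76500001-77000000) that read 1.55 in myoblasts, 0.684 in myotubes and 0.817 after AraC. The bin of Col4a1 and Col4a2 (chr8:11000001-11500000) read 0.948, 0.289 and -0.0438. The collagen VI bin remained in A in every matrix, and the collagen IV bin was just below 0 only after AraC.

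Developmental transcription factors other than those of muscle were in member bins in 16 of 122 cases (13.1%, in 14 bins). Sox1 is described above, and Pax8, a factor of thyroid and kidney development, lay in the interleukin-1 bin of chr 2. Of ETS family factors, 4 of 23 (17.4%) lay in 2 bins, and 3 of the 23 lay in bins that rose most. Fli1 and Ets1, neighbours on chr 9, had 0.0441 in myoblasts, -0.510 in myotubes and -0.831 after AraC, and Ehf and Elf5 on chr 2 had -0.237, -0.677 and -0.742.

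Muscle regulators were not absent from the list. Of 44 genes of myogenic regulation and early differentiation, 5 (11.4%) lay in member bins, each in a different bin. The bin of Eya1, a transcriptional cofactor in muscle precursors (chr1:14000001-14500000), read 0.807 in myoblasts, -0.123 in myotubes and -0.453 after AraC, and the adjacent bin of Msc, which encodes the E-box factor musculin, and Trpa1 read 0.0727, -0.498 and -0.707. Both crossed to B in each myotube matrix. The bin of Tcf21, a factor of muscle and mesenchymal progenitors, was in B throughout (-0.287, -0.890 and -0.760). Those of Eya4 (0.735, 0.281 and 0.250) and of Cdh15, the adhesion protein M-cadherin (3.11, 2.59 and 2.59), were in A throughout.

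Genes of the contractile apparatus and of the cell cycle were no more frequent than the background. Of 57 sarcomere genes 3 (5.26%) lay in member bins, and the bin of Tmod1, which caps thin filaments, read 1.41 in myoblasts, 0.841 in myotubes and 0.685 after AraC. Myom3, of the M band, lay in a bin at 2.80, 2.33 and 2.45, and Ankrd2, a titin-associated stretch-responsive protein, in a bin at 0.117, -0.312 and -0.0757. Of 76 genes of cell cycle and DNA replication 2 (2.63%) lay in member bins, both replication licensing or initiation factors. Mcm10 read 1.27, 0.640 and 0.621, and Cdt1, which shares its bin with Cdh15, 3.11, 2.59 and 2.59, so both stayed in A.

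Signalling ligands and receptors of the TGF-beta, BMP, FGF and Wnt families were in member bins in 4 of 90 cases (4.44%), namely Fzd3, Fgf1, Bmp3 and Sfrp5. The bin of Fgf1 on chr 18 read 0.919 in myoblasts, 0.244 in myotubes and 0.175 after AraC, and that of Sfrp5, a secreted Wnt antagonist, was the Ankrd2 bin. The bin of Bmp3 was in B throughout (-0.283, -0.747 and -0.772). Large families gave counts below or near the background, with 22 of 1128 olfactory receptor genes (1.95%, in 4 bins, among them Olfr461, Olfr460, Olfr1366 and Olfr1535), 20 of 375 zinc finger genes (5.33%, among them Zfp428, Zfp575, Zfp248 and Zfp9), 27 of 372 solute carrier genes (7.26%, among them Slc7a10, Slc7a9, Slc30a7 and Slc25a48), 2 of 67 protocadherin genes (2.99%, Pcdh1 and Pcdh12) and 0 of 53 keratin genes.

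**Figure D5:**
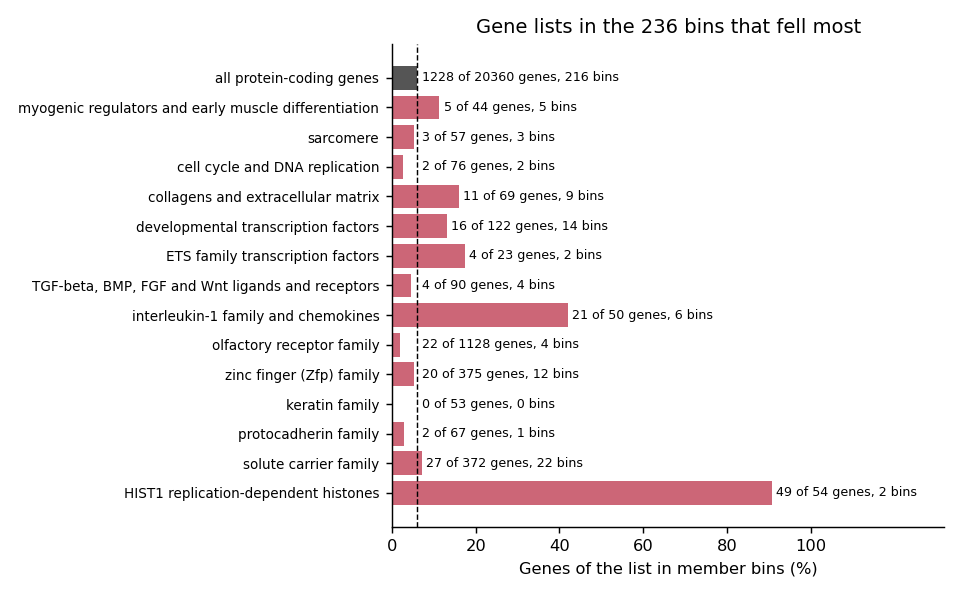
Share of the genes of each list whose start site lay in a member bin (percent, horizontal axis), with the number of genes and of bins beside each bar and the share of all protein-coding genes (6.03%) as a dashed line. The 2 longest bars, 90.7% for the HIST1 histones and 42.0% for the interleukin-1 family and chemokines, came from 2 and 6 bins. The lists were chosen with earlier results of these data known.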

How the data were processed

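Hi-C was performed with HindIII on C2C12 cells in 3 conditions. By the study's methods, the authors mapped reads with bowtie, filtered di-tags in HiCUP and normalized the di-tags in HOMER after pooling replicates. The deposited score of each pair of 500 kb bins (mm10) is a correlation coefficient of normalized interaction profiles, in 3 matrices. The pooled di-tags were most numerous in myotubes and fewest after AraC. The depth behind a coefficient is not in the values, and columns of unmapped samples numbered 0.

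PC1 was the first component of the centred within-chromosome block of autosomal bins with a diagonal above 0.5 in all 3 matrices, signed by the density of protein-coding TSSs (GENCODE M21) and divided by its SD. The component and the ranking were tested on simulated blocks with the same compartment strength in both conditions. That test therefore says nothing about the unequal spread of PC1 between the real conditions. Python 3.11.15, NumPy 2.4.6, pandas 2.3.3, SciPy 1.17.1 and Matplotlib 3.10.9 were used. The members and gene lists were chosen with earlier results of these data known. Named were the 12 members with the lowest differences, runs of 4 or more, the extremes of AraC-treated minus untreated myotubes (5 each way), the bins beside the limit (3 each side), the 3 members with the most TSSs and listed genes in member bins (up to 8 a list, otherwise 4). The Npy, Vim and Tril bins of runs, and the interleukin-1 receptor and chemokine bins, were named after their values were seen. Some bins that the rule names are not reported here.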

Additional observations from a re-analysis of the deposited data

How the results depend on the processing

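Of 65 comparisons of a value with its alternatives, 61 moved by less than the tolerance (1.5 times for counts) and 4 moved by more. A reversal could be scored only for the median scaled PC1 in AraC-treated myotubes, which stayed negative. Counts, TSS numbers and GC content have no sign to reverse. The selection depended on scaling, as 33 of the 236 bins were found again with PC1 not divided by its SD and 97 with ranks within chromosome and condition. With an absolute PC1 above the 20th percentile in both conditions, 5 members changed from A to B. With the linear trend with position removed, the median scaled PC1 of the members in AraC-treated myotubes was -0.118. Over the alternatives that kept the 236 bins, members lower in AraC-treated myotubes than in myoblasts numbered 213 to 235 of 236, members in B after AraC 137 to 153, and members with a negative profile correlation between myoblasts and AraC-treated myotubes 74 to 93. In the 2% and 10% lowest bins these counts were 94 of 94 and 465 of 472, 56 and 285, and 42 and 116. No paired analysis was possible because the replicates were pooled in the deposited matrices, and for the same reason no replicate could be left out. Depth differed among the conditions, and its effect on the scores was not tested.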
